A study of Mus musculus with 12 samples.

Results

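The genes described here are the receptors of TGFb and the Smads that carry its signal: the type I receptor Tgfbr1, the type II receptor Tgfbr2, the co-receptors Tgfbr3 (betaglycan) and Eng (endoglin), the TGFb-branch Smads Smad2 and Smad3, the common partner Smad4, and the BMP-branch Smads Smad1 and Smad5. These 9 genes were chosen by their symbols, with earlier results of these data known. All 9 were found among the 15720 identifiers of the table, and all 9 passed the minimum mean of 0.5 FPKM (fragments scaled by transcript length and library size) set for testing. The cells were EMS404, mouse hepatic stellate cells of C57Bl6 origin that had been immortalised with SV40 and carry human TLR4, so all results come from 1 immortalised line. They received a scrambled siRNA or an siRNA against the clock factor Bmal1, and after 48 h either vehicle or TGFb at 10 ng/mL, for 24 h. Each of the 4 groups (scrambled siRNA with vehicle, scrambled siRNA with TGFb, Bmal1 siRNA with vehicle, Bmal1 siRNA with TGFb) held 3 libraries, 12 in all. Every group had been transfected, so no untransfected cells serve as a reference. No label says that the triplicates were separate cultures. The p-values of the main fit rest on the scatter within groups, pooled over all 12 libraries, and that scatter may be technical only.

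As background, TGFb binds the type II receptor, a kinase that is always active, which then phosphorylates the type I receptor. The type I receptor phosphorylates Smad2 and Smad3, these join Smad4, and the complex enters the nucleus and binds DNA. Betaglycan presents ligand to the type II receptor and can also be shed as a soluble trap, endoglin is a co-receptor best known from endothelium that bears on the balance of TGFb and BMP signals, and Smad1 and Smad5 are the substrates of BMP type I receptors. In stellate cells this pathway is the main driver of matrix production in liver fibrosis. The question put to these genes was whether the transcript of a receptor or Smad was lower after Bmal1 siRNA, before or during TGFb. Protein amounts and Smad phosphorylation were not measured.

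The proximal promoters of 3 members whose level changed are shown because Bmal1 binds the E-box CACGTG. RefSeq windows of the 250 bases before a start site (GRCm38.p6) were at hand for 6 members, with 9 windows among them. Capitals mark matches, on either strand, to any of 5 motifs: the E-box CACGTG, the Smad palindrome GTCTAGAC, the CAGA box core CAGACA, the GC box GGGCGG and the BMP response element core GGCGCC.
Smad3, chr9:63757995-63758244, minus strand: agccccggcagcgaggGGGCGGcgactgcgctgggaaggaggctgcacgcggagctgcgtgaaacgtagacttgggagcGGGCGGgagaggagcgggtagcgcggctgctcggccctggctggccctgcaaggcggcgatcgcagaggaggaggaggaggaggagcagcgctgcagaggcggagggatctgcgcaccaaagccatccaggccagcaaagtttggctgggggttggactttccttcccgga
Eng, chr2:32646345-32646594, plus strand: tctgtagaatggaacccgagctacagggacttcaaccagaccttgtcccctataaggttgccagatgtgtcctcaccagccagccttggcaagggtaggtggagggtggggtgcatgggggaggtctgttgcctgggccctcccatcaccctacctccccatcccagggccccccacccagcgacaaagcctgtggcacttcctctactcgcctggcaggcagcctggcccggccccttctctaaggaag
Tgfbr1, chr4:47352972-47353221, plus strand: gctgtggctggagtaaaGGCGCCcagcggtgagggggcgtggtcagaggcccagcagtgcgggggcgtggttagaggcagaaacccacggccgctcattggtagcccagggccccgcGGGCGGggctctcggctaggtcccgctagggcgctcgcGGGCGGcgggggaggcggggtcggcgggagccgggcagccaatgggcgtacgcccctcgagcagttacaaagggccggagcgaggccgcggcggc
No E-box and no Smad palindrome was found in any of the 9 windows, against 6.02% and 0.167% of all 32851 promoter windows of that length. The Smad3 window held 2 GC boxes, the Tgfbr1 window shown 2 GC boxes and 1 BMP response element core, and the Eng window none of the 5 motifs. Another Tgfbr1 window, not shown (chr4:47385966-47386215), held 1 CAGA box core. It was the only window of the 9 with that motif, against 17.1% of all windows. GC boxes were present in 32.7% of all windows and BMP response element cores in 9.59%. These matches describe 250 bases only and say nothing of sites elsewhere. Windows for Tgfbr3, Smad2 and Smad4 were not used here.

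The libraries were alike in total FPKM, 445472 to 483957, and the read depth is unknown. The targeted transcript, Arntl (Bmal1), stood at 5.43, 5.19 and 4.91 FPKM in the scrambled vehicle libraries (replicates 1 to 3) and at 3.90, 3.87 and 3.59 FPKM with Bmal1 siRNA and vehicle. Under TGFb it stood at 10.50, 10.75 and 10.86 FPKM with scrambled and 5.05, 4.01 and 4.0 FPKM with Bmal1 siRNA. The siRNA groups did not overlap under either treatment. Under vehicle the Arntl difference just passed (log2 -0.37, adjusted p = 0.049), and it missed the threshold in 10 of the 12 fits that left out 1 library (adjusted p 0.0565 to 0.21). Under TGFb the difference was -1.13 (limma adjusted p = 1.38e-06), and the call held in all 12 such fits. TGFb raised Arntl in control cells (log2 0.92, adjusted p = 6.4e-07), and after Bmal1 siRNA this value was 0.16 (adjusted p = 0.168). Bmal1 siRNA with TGFb replicate 2 stands apart from its 2 partners: it is the member of that group with the weakest TGFb response, as Pmepa1, a feedback gene that TGFb induces, shows with 19.24 FPKM against 42.76 and 34.89 FPKM. Called member differences that use this library are given with and without it, and pathway list counts also without it where they change. Of the stellate cell markers, Vim, Col1a1, Col1a2, Pdgfrb, Hand2, Lhx2, Cygb, Nes and Dcn were well expressed, while Des reached at most 1.23 FPKM and Gfap, Ngfr, Lum, Hgf and Rgs5 stayed under 0.5 FPKM in every library, so the line lacks part of the classical marker set. Of 17 markers listed, 15 were found among the named genes. Lrat and Reln were not, so their levels are not known.

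In resting control cells the members spanned a wide range of levels per unit length. Endoglin transcript was the most abundant at 73.8 ± 2.73 FPKM (SD, n = 3), followed by Tgfbr2 at 47.0 ± 4.11 FPKM, Smad4 at 32.4 ± 1.29 FPKM and Smad3 at 19.1 ± 0.482 FPKM. Tgfbr3 (13.4 ± 0.98 FPKM), Smad1 (12.4 ± 1.34 FPKM) and Smad5 (10.7 ± 1.03 FPKM) followed, and neighbours in this stretch of the order overlapped between libraries. Smad2 at 8.49 ± 0.312 FPKM and Tgfbr1 at 4.57 ± 0.552 FPKM came last, each below all libraries of its neighbour above. The kinase that phosphorylates Smad2 and Smad3 was thus the rarest of the 9 transcripts, and Smad3 was the more abundant of its 2 substrates. The order was the same with Bmal1 siRNA and vehicle. After TGFb with scrambled siRNA, Tgfbr3 moved from the fifth to the last place, below every Tgfbr1 value. After TGFb with Bmal1 siRNA it stood between Smad2, which it overlapped, and Tgfbr1.

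**Figure D1:**
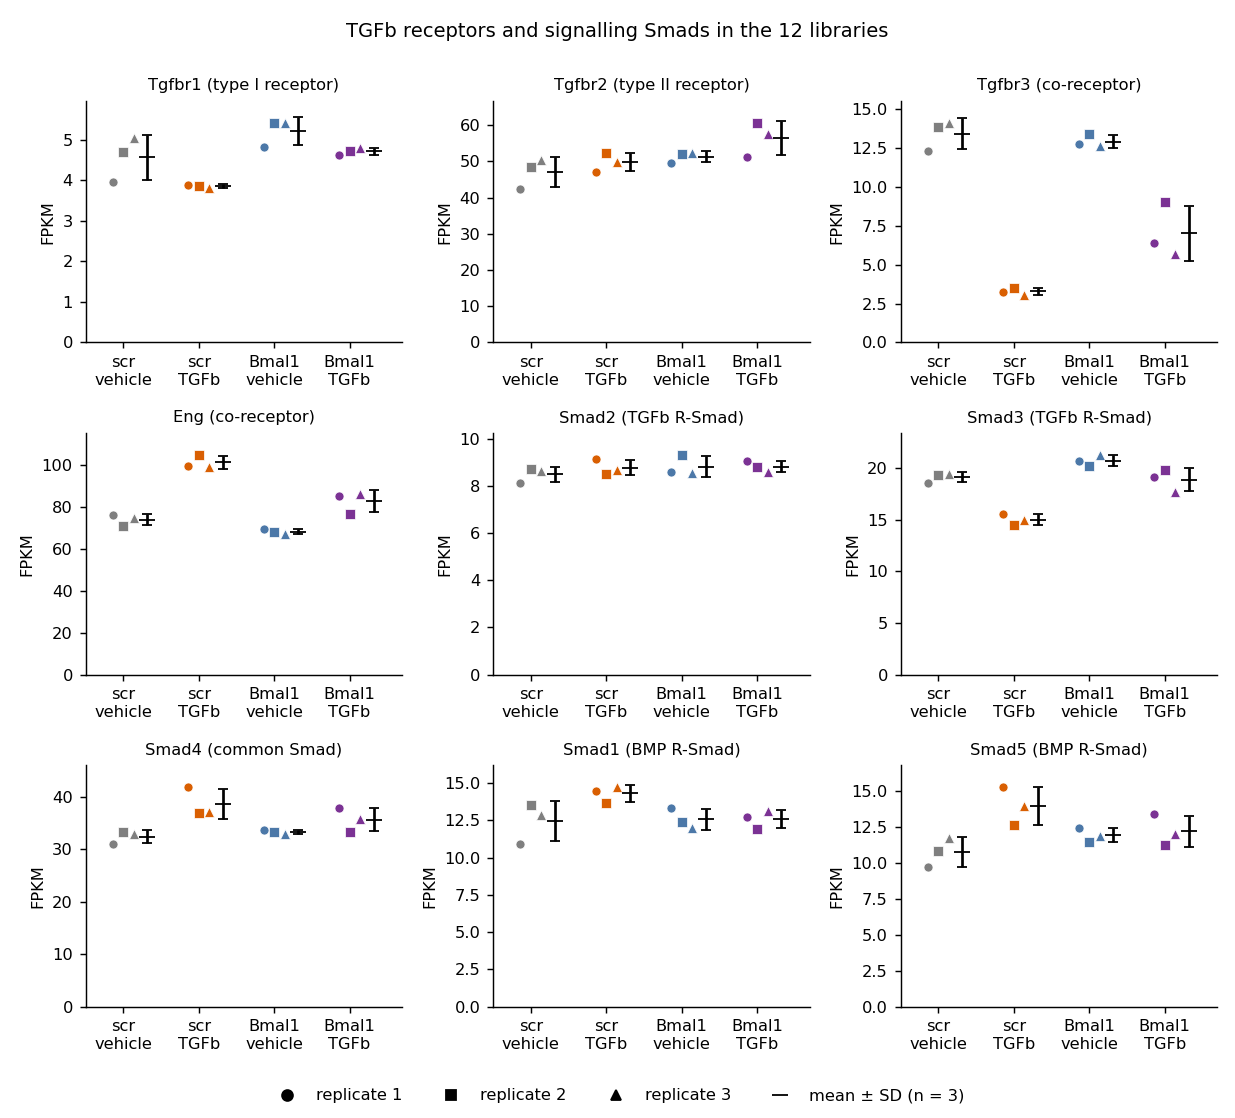
FPKM of each of the 9 genes (vertical axes, from 0) in the 4 groups (scr, scrambled siRNA); symbols are single libraries by replicate number and bars are mean ± SD of 3 libraries. Tgfbr3 falls from 12.29 to 14.11 FPKM in scrambled vehicle libraries to 3.06 to 3.53 FPKM with TGFb, and lies between these at 5.65 to 8.99 FPKM with Bmal1 siRNA and TGFb.

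With scrambled siRNA, TGFb changed 7 of the 9 transcripts: Eng, Smad4, Smad1 and Smad5 rose, and Tgfbr3, Smad3 and Tgfbr1 fell. Of all 11208 genes tested, 45.5% were called in this comparison, 16.4% higher and 29.1% lower, so a call on its own does not set a member apart. A call is a Benjamini-Hochberg adjusted p under 0.05 by limma over all genes, and all log2 differences are on the log2(FPKM + 1) scale. By far the largest change was in the co-receptor betaglycan. Tgfbr3 (ENSMUSG00000029287, mm10 chromosome 5, 107106570 to 107289629, minus strand) measured 12.29, 13.83 and 14.11 FPKM with vehicle and 3.25, 3.53 and 3.06 FPKM with TGFb. The mean after TGFb was 24.5% of the vehicle mean. The log2 difference was -1.75 (95% interval -2.00 to -1.50, adjusted p = 1.21e-07), or -1.15 with a pseudocount of 5. The gene shares 297 exon bases with the predicted transcript Gm43422.

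The other co-receptor moved the opposite way. Eng (ENSMUSG00000026814, chromosome 2, 32646595 to 32682669, plus strand; 61 exon bases shared with Fpgs on the other strand) read 76.05, 70.79 and 74.68 FPKM with vehicle and 99.64, 104.75 and 99.19 FPKM with TGFb, with no overlap. The log2 difference was 0.45 (0.34 to 0.56, adjusted p = 1.06e-05). Because endoglin is a marker of endothelium, endothelial genes were read beside it. Of 11 other endothelial markers in the table, 8 stayed under 1 FPKM in every library, among them Pecam1, Cdh5 and Kdr with at most 0.13, 0.07 and 0.15 FPKM. The summed level of the 11 was 10.8 to 11.9 FPKM with vehicle and 8.0 to 8.98 FPKM with TGFb. This sum rested mostly on Egfl7 (4.38 to 7.51 FPKM over all libraries), Flt1 (1.9 to 3.04) and Tek (0.96 to 3.09). Endothelial cell content was not tested.

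The kinase receptors changed little. Tgfbr1 (ENSMUSG00000007613, chromosome 4, 47353222 to 47414931, plus strand) had 3.96, 4.70 and 5.04 FPKM with vehicle and 3.89, 3.87 and 3.80 FPKM with TGFb. Its log2 difference of -0.19 (-0.35 to -0.03, adjusted p = 0.0473) only just passed. Of the 12 fits that left out 1 library the call held in 3, those lacking replicate 1 of either vehicle group or replicate 2 of the Bmal1 siRNA TGFb group, and the other 9 gave adjusted p-values of 0.0544 to 0.195. It also ended with median-of-ratios scaling (adjusted p = 0.135), equal totals (0.147) and quantile normalization (0.0724). Tgfbr2 (ENSMUSG00000032440, chromosome 9, 116084293 to 116175360, minus strand) had 42.44, 48.34 and 50.34 FPKM with vehicle and 47.20, 52.21 and 49.94 FPKM with TGFb, with overlapping groups. Its log2 difference was 0.08 (-0.07 to 0.24, adjusted p = 0.366).

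Smad2 and Smad3, the pair of TGFb-branch Smads, parted under TGFb. Smad3 (ENSMUSG00000032402, chromosome 9, 63646767 to 63757994, minus strand) fell from 18.54, 19.36 and 19.39 FPKM to 15.54, 14.52 and 14.95 FPKM. The log2 difference was -0.33 (-0.44 to -0.22, adjusted p = 0.000186), and the mean after TGFb was 78.6% of that with vehicle. Smad2 (ENSMUSG00000024563, chromosome 18, 76241580 to 76310963, plus strand) read 8.13, 8.71 and 8.62 FPKM with vehicle and 9.14, 8.50 and 8.67 FPKM with TGFb. These overlapped, with a log2 difference of 0.04 (-0.08 to 0.16, adjusted p = 0.557).

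The common Smad and the BMP-branch Smads were higher with TGFb. Smad4 (ENSMUSG00000024515, chromosome 18, 73639009 to 73703780, minus strand) went from 30.97, 33.39 and 32.93 FPKM to 41.91, 36.93 and 37.11 FPKM (log2 0.24, 0.12 to 0.37, adjusted p = 0.0042). Smad5 (ENSMUSG00000021540, chromosome 13, 56703010 to 56742377, plus strand; 100 exon bases shared with Gm27301) went from 9.67, 10.82 and 11.72 FPKM to 15.25, 12.62 and 13.92 FPKM (log2 0.35, 0.17 to 0.53, adjusted p = 0.00394). In both genes every TGFb library lay above every vehicle library. Smad1 (ENSMUSG00000031681, chromosome 8, 79338395 to 79399518, minus strand) measured 10.92, 13.49 and 12.88 FPKM with vehicle and 14.47, 13.68 and 14.73 FPKM with TGFb. Its log2 difference of 0.19 (0.04 to 0.35, adjusted p = 0.0449) was called by a small margin. The call held when replicate 2 of either scrambled group, replicate 2 of the Bmal1 siRNA TGFb group or replicate 1 of the Bmal1 siRNA vehicle group was left out, and ended without any of the other 8 libraries (adjusted p 0.0512 to 0.179). The median log2 difference over the 9 members was 0.08, against -0.05 over all genes tested. The share of higher calls among all called genes was 36.1% on the deposited scale, 49.8% once libraries were scaled by median of ratios and 47.5% after quantile normalization. None of the 7 members changed direction under these scalings.

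**Figure D2:**
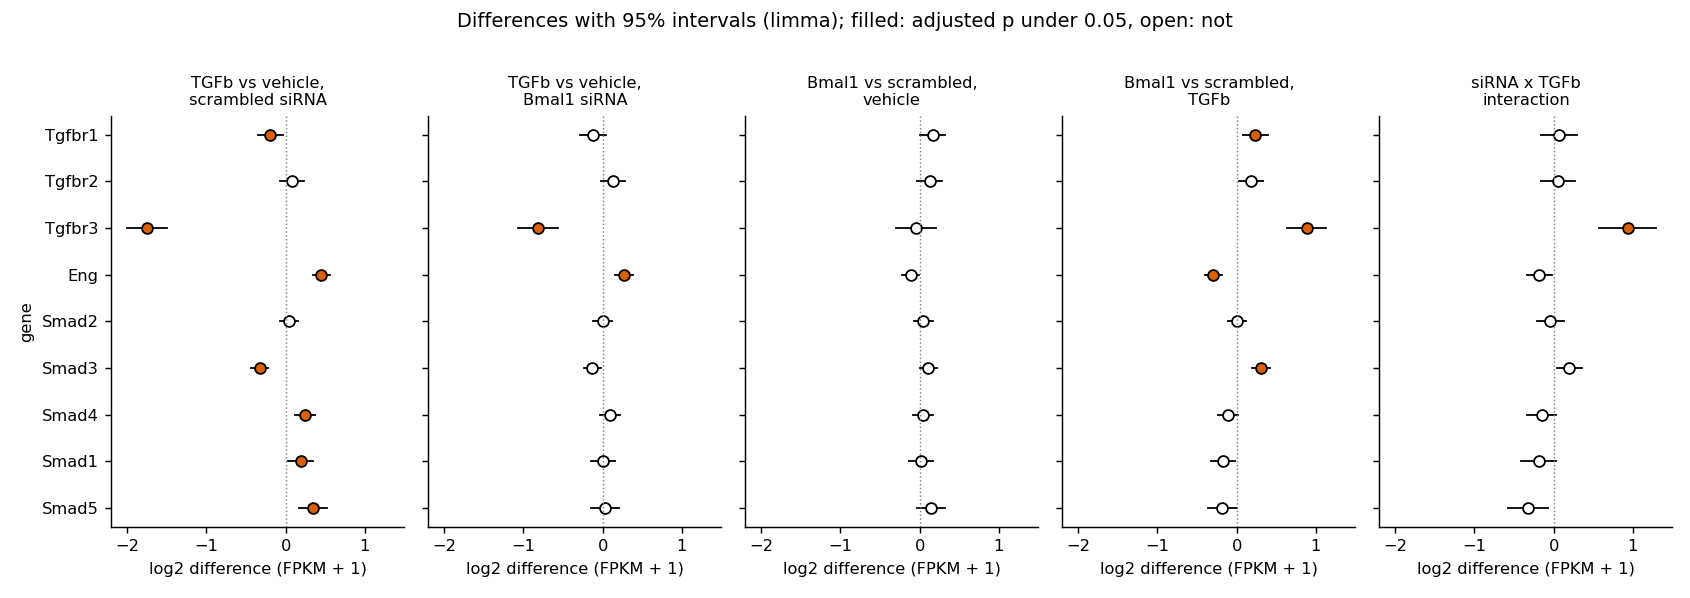
Log2 differences of FPKM + 1 (horizontal axes) with 95% intervals from limma for the 9 genes in the 4 pairwise comparisons and the interaction; filled points have an adjusted p under 0.05. In the comparison of Bmal1 with scrambled siRNA under vehicle all 9 points are open and lie between -0.11 and 0.16.

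Without TGFb, no receptor or Smad transcript was called lower after Bmal1 siRNA. None of the 9 members was called under vehicle by limma, where 0.66% of all genes were called, 0.294% higher and 0.366% lower, and 2 had an unadjusted p under 0.05, Tgfbr1 and Eng. Tgfbr1 measured 4.82, 5.42 and 5.42 FPKM with Bmal1 siRNA, a log2 difference of 0.16 (0.0043 to 0.32, adjusted p = 0.218) in the direction of more receptor. Eng measured 69.60, 67.76 and 67.19 FPKM, below all 3 control values, with a log2 difference of -0.11 (-0.22 to -0.0034, adjusted p = 0.216). The interval for Eng allows a fold of 0.857 to 0.998.

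The main signal-carrying members stood at or slightly above control. Tgfbr2 read 49.51, 52.11 and 52.24 FPKM (log2 0.13, -0.03 to 0.28), and Smad3 read 20.64, 20.20 and 21.27 FPKM (log2 0.11, -0.00085 to 0.22), above all 3 control libraries. Smad2 had 8.57, 9.31 and 8.53 FPKM (log2 0.05, -0.07 to 0.17) and Smad4 33.71, 33.36 and 32.90 FPKM (log2 0.04, -0.09 to 0.17). For these 4 genes the lower bounds of the fold on the FPKM + 1 scale were 0.981, 0.999, 0.952 and 0.941, and adjusted p-values ran from 0.233 to 0.725. Tgfbr3 had 12.72, 13.36 and 12.63 FPKM (log2 -0.05, -0.30 to 0.20), Smad1 13.30, 12.41 and 11.96 FPKM (log2 0.02, -0.14 to 0.17) and Smad5 12.41, 11.44 and 11.88 FPKM (log2 0.14, -0.04 to 0.32). Tgfbr3 had the widest interval of the 9, with a lower bound of 0.812-fold. A p that misses the threshold does not show equal levels, and these bounds give what the data still allow. 

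Under TGFb, Bmal1 siRNA changed 4 of the 9 transcripts. Tgfbr3, Smad3 and Tgfbr1 were higher than with scrambled siRNA and Eng was lower. Over all genes tested 23.2% were called in this comparison, 16% higher and 7.16% lower. Of the called genes 69.1% were higher on the deposited scale, 44.9% with median-of-ratios scaling, 53.3% after quantile normalization and 58.9% with equal totals. Tgfbr3 stood at 6.38, 8.99 and 5.65 FPKM with Bmal1 siRNA, all above the 3.06 to 3.53 FPKM of the scrambled TGFb libraries. The log2 difference was 0.88 (0.63 to 1.13, adjusted p = 0.000188), or 0.53 with a pseudocount of 5 and 0.71 without Bmal1 siRNA TGFb replicate 2, which was the highest of the 3.

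Smad3 read 19.15, 19.83 and 17.64 FPKM against 14.52 to 15.54 FPKM in control cells with TGFb. The groups did not overlap, and the log2 difference was 0.31 (0.20 to 0.42, adjusted p = 0.00109), or 0.28 without Bmal1 siRNA TGFb replicate 2. In level these Smad3 values lay close to those of vehicle-treated control cells. Tgfbr1 read 4.63, 4.72 and 4.79 FPKM, again without overlap, with a log2 difference of 0.24 (0.08 to 0.39, adjusted p = 0.0357). This call ended without any 1 of the 6 TGFb libraries (adjusted p 0.0505 to 0.093), and with median-of-ratios scaling (0.11), equal totals (0.0902), quantile normalization (0.101) and no filter (0.0584). Tgfbr2 had 51.34, 60.67 and 57.59 FPKM (log2 0.18, 0.02 to 0.33) and was not called (adjusted p = 0.087), though leaving out Bmal1 siRNA TGFb replicate 1 (0.0225) or scrambled vehicle replicate 1 (0.0487) made it pass.

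Eng was the called member with less transcript. It stood at 85.20, 76.50 and 85.90 FPKM after Bmal1 siRNA with TGFb, below the 99.19 to 104.75 FPKM of control cells with TGFb but above all vehicle libraries of either siRNA. The log2 difference was -0.29 (-0.40 to -0.18, adjusted p = 0.0014), a fold of 0.817 (0.757 to 0.881). Without Bmal1 siRNA TGFb replicate 2, the lowest of its group, it was -0.24 (adjusted p = 0.00317). The summed level of the 11 endothelial markers was 9.49 to 13.1 FPKM in these libraries and 8.0 to 8.98 FPKM in control cells with TGFb. Whether this sum bears on Eng was not tested.

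The remaining Smads differed less. Smad4 had 37.82, 33.39 and 35.81 FPKM, overlapping the control TGFb values (log2 -0.11, -0.24 to 0.01, adjusted p = 0.184). Smad2 had 9.04, 8.79 and 8.58 FPKM (log2 0.01, -0.11 to 0.12, adjusted p = 0.959). Smad4 thus may be as low as 0.847 times control on the FPKM + 1 scale and Smad2 as low as 0.925 times. Smad1 had 12.69, 11.92 and 13.14 FPKM, below all 3 control TGFb libraries, with a log2 difference of -0.17 (-0.33 to -0.02, adjusted p = 0.103). It passed with median-of-ratios scaling (adjusted p = 0.0376), with quantile normalization (0.0375) and without scrambled vehicle replicate 1 (0.0399). Smad5 had 13.36, 11.22 and 11.96 FPKM (log2 -0.18, -0.36 to -0.0011, adjusted p = 0.132) and overlapped control. In level the BMP-branch Smads, at 88.0% and 87.4% of the control TGFb means, stood near their vehicle values.

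After Bmal1 siRNA, TGFb changed 2 of the 9 members, where 19% of all genes were called, 8.9% higher and 10.1% lower. Both were co-receptors. Tgfbr3 fell from the 12.63 to 13.36 FPKM of the Bmal1 siRNA vehicle libraries by a log2 difference of -0.82 (-1.07 to -0.57, adjusted p = 0.000479), to 54.3% of vehicle. Without Bmal1 siRNA TGFb replicate 2 these were -0.99 and 46.6%. Eng rose with a log2 difference of 0.27 (0.16 to 0.38, adjusted p = 0.00268), or 0.32 without that library. Smad3 had a log2 difference of -0.13 (-0.24 to -0.02) with non-overlapping groups but missed the threshold (adjusted p = 0.102). It passed without Bmal1 siRNA TGFb replicate 2 (adjusted p = 0.0377), which makes 3 members called. Tgfbr1 had 90.3% of its vehicle mean, with groups that did not overlap. The 6 members other than these 3 had log2 differences between -0.12 (Tgfbr1) and 0.14 (Tgfbr2), with adjusted p-values of 0.208 to 0.995. Smad4 and Smad5, which TGFb raised in control cells, had 0.09 (-0.03 to 0.22) and 0.03 (-0.15 to 0.21).

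Whether the TGFb effect itself differed between siRNAs was tested as the interaction, which is the TGFb effect after Bmal1 siRNA minus that with scrambled siRNA. Of the 9 members 1 was called, Tgfbr3, where 14.4% of all genes were called, 8.86% positive and 5.52% negative. Its interaction was 0.93 (0.58 to 1.29, adjusted p = 0.0029), so the fall was smaller after Bmal1 siRNA; without Bmal1 siRNA TGFb replicate 2 it was 0.76 (adjusted p = 0.000397), and 0.57 with a pseudocount of 5. In the other members a difference between siRNAs was not shown. Smad5 (-0.32, -0.57 to -0.07, adjusted p = 0.0873), Smad3 (0.20, 0.04 to 0.36, adjusted p = 0.0874) and Eng (-0.18, -0.33 to -0.02, adjusted p = 0.115) had intervals that left out 0 but missed the threshold over all genes. Smad5 passed without Bmal1 siRNA TGFb replicate 1 (0.0397), Smad3 without Bmal1 siRNA TGFb replicate 3 (0.0464), and Eng with equal totals (0.0459) and quantile normalization (0.0486). Tgfbr1 (0.07), Tgfbr2 (0.05), Smad2 (-0.04), Smad4 (-0.15) and Smad1 (-0.19) had intervals that included 0. Smad1, Smad4 and Smad5 were thus called in control cells and not after Bmal1 siRNA, but a difference between the siRNAs was not shown for them.

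Ratios between members within a library do not depend on how libraries are scaled. Smad3 to Smad2 was 2.28, 2.22 and 2.25 in scrambled vehicle libraries and 1.70, 1.71 and 1.72 with TGFb, a tight and non-overlapping shift. It was 2.41, 2.17 and 2.49 with Bmal1 siRNA and vehicle, and 2.12, 2.26 and 2.06 with Bmal1 siRNA and TGFb. All 3 of the last libraries lay above the control TGFb range, and they overlapped their own vehicle libraries. The sum of Smad2 and Smad3 over that of Smad1 and Smad5, the balance of TGFb-branch to BMP-branch transcripts, was 1.20 ± 0.0862 in control vehicle cells and 0.843 ± 0.0278 with TGFb, and 1.21 ± 0.0624 and 1.12 ± 0.102 after Bmal1 siRNA. With scrambled siRNA this balance thus crossed from above 1 to below 1 in every library, and after Bmal1 siRNA it stayed above 1 in every library.

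The type II to type I receptor ratio was higher with TGFb in every library of either siRNA than in its vehicle libraries. Tgfbr2 to Tgfbr1 was 10.3 ± 0.367 with vehicle and 12.9 ± 0.705 with TGFb in control cells, and 9.84 ± 0.373 and 11.99 ± 0.883 after Bmal1 siRNA. The 4 receptor-activated Smads summed over Smad4 were 1.56 ± 0.036 and 1.35 ± 0.0562 with scrambled siRNA, and 1.62 ± 0.0175 and 1.47 ± 0.0673 with Bmal1 siRNA. Of the 16 ratio comparisons, those without overlap had p = 0.1 and an adjusted p of 0.16 in an exact permutation test (two-sided); 3 against 3 cannot go below that p. The ratio of Eng to Tgfbr3 was added after the values were seen and has no test. It was 5.53 ± 0.574 and 30.9 ± 1.39 without and with TGFb in control cells, and 5.29 ± 0.202 and 12.4 ± 3.46 after Bmal1 siRNA. The last mean comes from 13.4, 8.51 and 15.2, and is 14.3 without replicate 2.

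**Figure D3:**
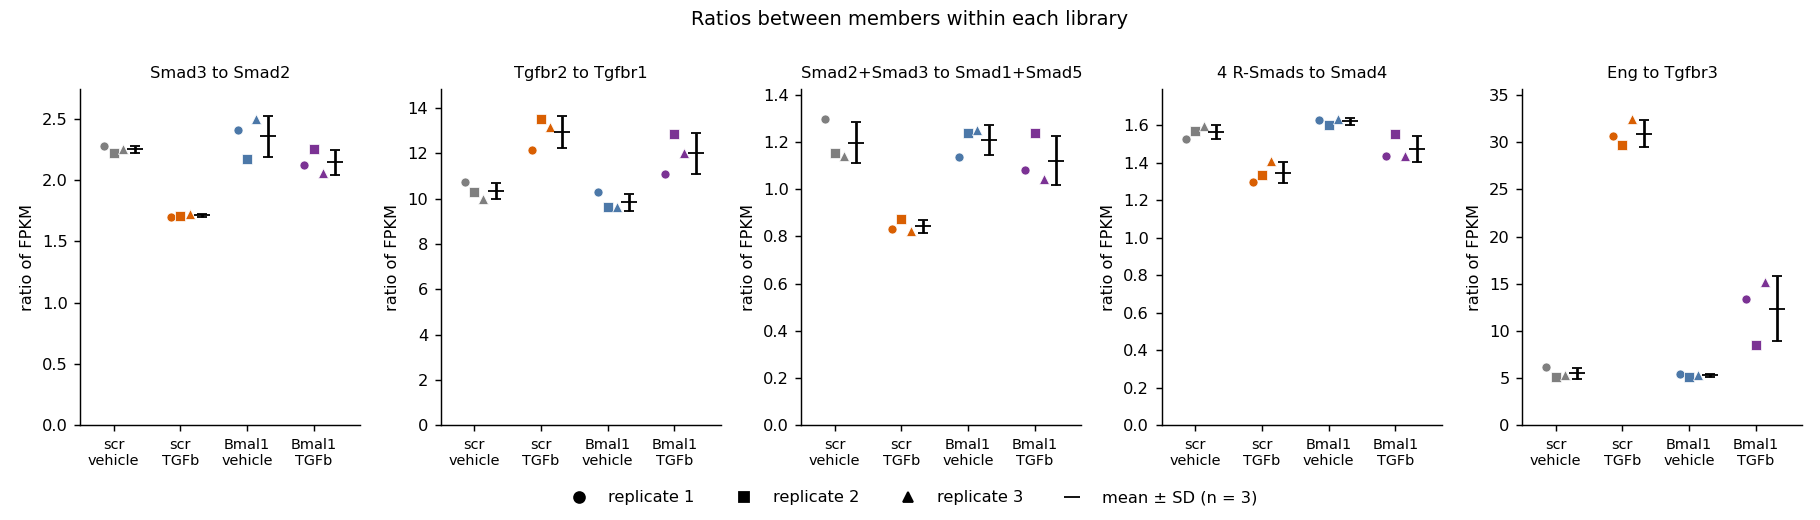
Ratios of FPKM between members in each library (vertical axes, from 0), by group; symbols are libraries, bars mean ± SD of 3. Smad3 to Smad2 lies at 1.70 to 1.72 in control cells with TGFb and at 2.06 or above in the other 9 libraries.

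The members were set beside the output of the pathway, library by library. A list of 18 genes known as direct TGFb and Smad3 targets had a median log2 level, relative to control vehicle cells, of 1.58, 1.62 and 1.58 in the scrambled TGFb libraries. It was 0.72, 0.31 and 0.67 in the Bmal1 siRNA TGFb libraries and -0.04 to 0.09 in the Bmal1 siRNA vehicle libraries. The lowest output, in replicate 2, came in the library with the highest Tgfbr3 (8.99 FPKM), the highest Tgfbr2 (60.67 FPKM) and Smad3 (19.83 FPKM) and the lowest Eng (76.50 FPKM) of its group. Its Tgfbr1, Smad2 and Smad4 values were the middle, the middle and the lowest of the 3. With 3 libraries this is a description only, and the part of any member in the size of the response was not tested. The list was chosen with earlier results of these data known, so its counts are a description only. Its genes Smad7, Skil, Pmepa1, Ldlrad4, Junb and Ltbp2 are also in the inhibitor, cofactor or ligand lists below, so those counts are not separate from it. All 18 targets rose with TGFb in control cells, where 16.4% of all genes were called higher, and 14 did after Bmal1 siRNA (8.9%). Without Bmal1 siRNA TGFb replicate 2, 14 were higher and 1 was lower with TGFb after Bmal1 siRNA. Under TGFb the siRNA lowered 17 of the 18, where 7.16% of all genes were called lower. Under vehicle it changed none of the 18, but without Bmal1 siRNA TGFb replicate 2 it was called for 3 higher and 1 lower there.

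**Figure D4:**
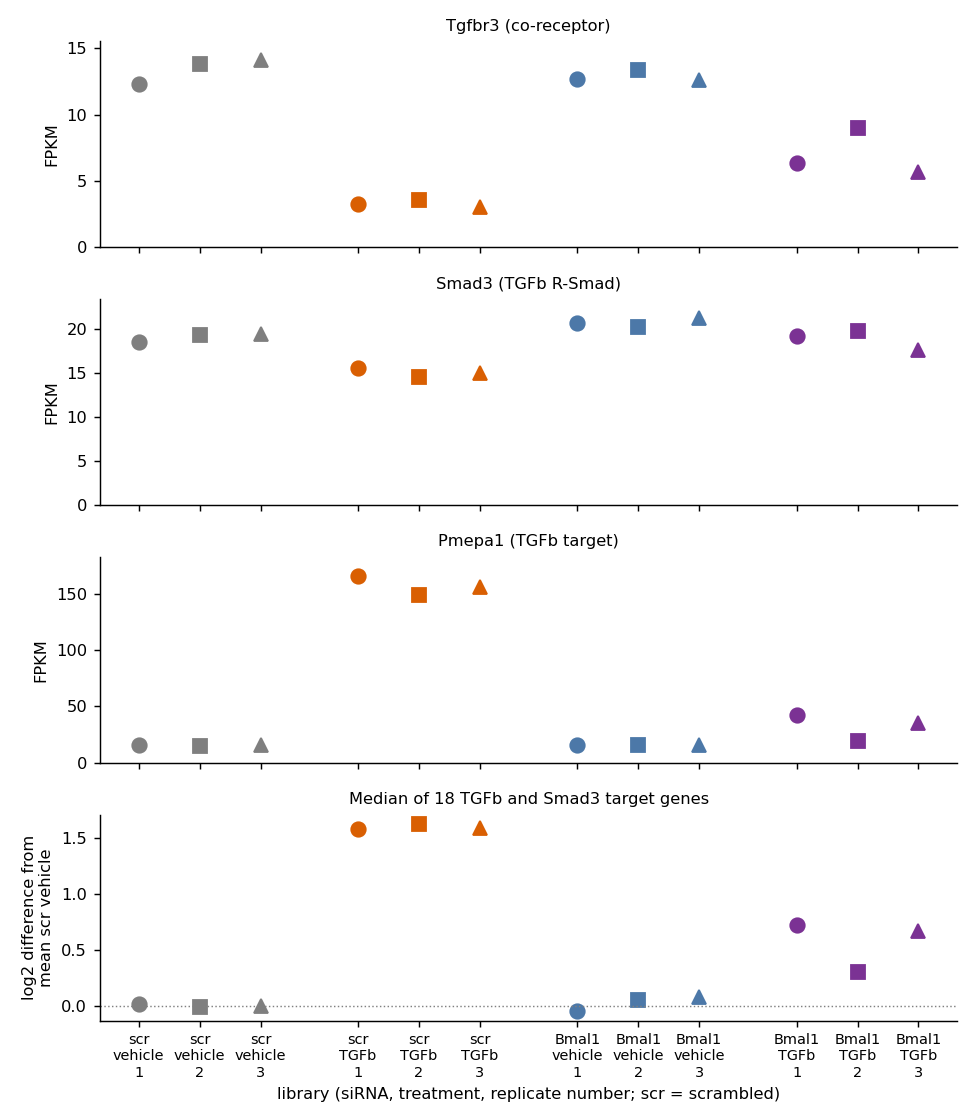
FPKM of Tgfbr3, Smad3 and the TGFb target Pmepa1 (from 0) and the median log2 difference of 18 target genes from the mean of the scrambled vehicle libraries (lowest panel), 1 symbol per library in the same order in each panel. In Bmal1 siRNA TGFb replicate 2 Tgfbr3 is at 8.99 FPKM while Pmepa1 is at 19.24 FPKM, near the vehicle libraries.

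Other receptors of the family were present beside the members. Of 11 genes in this list (type I and II receptors and Smad9) 7 could be tested. Bmpr1a, a BMP type I receptor, ranged from 29.09 to 37.59 FPKM over all libraries, while Acvrl1, the endothelial type I partner of endoglin, stayed at 0.06 to 0.44 FPKM and Bmpr1b and Acvr1c at 0.03 FPKM or less. With TGFb in control cells 2 rose and 3 fell, where 16.4% of all genes were called higher and 29.1% lower. Acvr1, a type I receptor for BMP and activin, went from 12.89, 12.75 and 12.42 to 20.19, 18.65 and 21.53 FPKM (log2 0.62, adjusted p = 3.11e-06), and the BMP type II receptor Bmpr2 from 6.67, 8.98 and 8.65 to 14.40, 10.82 and 12.73 FPKM (0.59, adjusted p = 0.00134). The 3 that fell were Smad9 (-0.58), the activin receptor Acvr1b (-0.37) and Bmpr1a (-0.15, adjusted p = 0.0491), whose call was lost in 10 of the 12 fits without 1 library. After Bmal1 siRNA none rose and 2 fell with TGFb, Smad9 (-0.53) and Acvr1b (-0.44), where 8.9% of all genes were called higher and 10.1% lower. Without Bmal1 siRNA TGFb replicate 2, 1 rose. The Acvr1b call ended without replicate 3 of that group (adjusted p = 0.057). Under vehicle the siRNA changed none of the 7, and under TGFb it lowered Acvr1 alone, to 14.79, 13.02 and 13.15 FPKM (-0.53, adjusted p = 7e-05). Over all genes 0.66% were called under vehicle and 7.16% were called lower under TGFb.

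Genes that act on the receptors or the Smads were read from further lists. Among 14 genes of receptor binding and endocytosis, 3 rose and 1 fell with TGFb in control cells: Cd109, a surface protein that binds TGFb and its receptor and lowers signalling (log2 1.03), Appl1 (0.44) and Zfyve9, the SARA anchor for Smad2 and Smad3 (0.16, adjusted p = 0.0458; lost in 8 of the 12 fits without 1 library), against Dab2 (-0.35). Without Bmal1 siRNA TGFb replicate 2, 4 rose. Of all genes 16.4% were called higher and 29.1% lower in this comparison, so these counts do not set the list apart. Under vehicle Bmal1 siRNA changed 1 of the 14, where 0.66% of all genes were called. That gene was Cd109, which rose from 2.89, 3.49 and 4.05 to 4.91, 5.77 and 5.32 FPKM (log2 0.51, adjusted p = 0.0291). The Cd109 call was lost in 6 of the 12 fits without 1 library (adjusted p 0.053 to 0.195): those lacking replicate 1 or 2 of the scrambled vehicle group, replicate 2 or 3 of the Bmal1 siRNA vehicle group, or replicate 3 of either TGFb group. Without Bmal1 siRNA TGFb replicate 2, 3 of the 14 were called higher. Zfyve9, Dab2 and Appl1 were not called there (0.07, 0.09 and 0.30, with adjusted p-values of 0.538, 0.307 and 0.0712).

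Of 10 tested inhibitory Smads, decoys and corepressors, Bmal1 siRNA changed none under vehicle, with a median log2 difference of 0.04 against 0.01 over all genes. The nearest to a call was the corepressor Skil (3.56, 3.59 and 3.62 FPKM with Bmal1 siRNA against 2.35, 2.94 and 2.83 FPKM, log2 0.31, adjusted p = 0.0995). Smad7, the inhibitory Smad that blocks the type I receptor, stood at 4.15, 5.22 and 5.44 FPKM with Bmal1 siRNA against 4.91, 4.61 and 4.76 FPKM (0.04, adjusted p = 0.809). Without Bmal1 siRNA TGFb replicate 2, 1 of the 10 was called higher under vehicle. With TGFb 7 of the 10 rose and 1 fell in control cells, where 16.4% of all genes were called higher and 29.1% lower. Under TGFb 7 were lower with Bmal1 siRNA than in control cells, where 7.16% of all genes were called lower. Among them were Pmepa1 (-2.32), Skil (-1.06), Smad7 (-0.97) and Ski (-0.50).

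Ubiquitin ligases, phosphatases and deubiquitinases of the pathway gave 7 of 18 higher and 4 lower with TGFb in control cells. Of all genes 16.4% were called higher and 29.1% lower in this comparison. Among the called genes of the list were the ligases Wwp2 (log2 0.81) and Smurf1 (0.61) and the Smad phosphatases Ctdsp1 (-0.46) and Ctdspl (-0.51). None of the 18 was called with Bmal1 siRNA under vehicle (1 higher without Bmal1 siRNA TGFb replicate 2), and under TGFb 3 were higher and 2 lower (2 and 2 without it). Of 20 tested nuclear transport factors and Smad cofactors none was called under vehicle (1 higher and 1 lower without that library). Under TGFb 2 were higher with Bmal1 siRNA (1 without that library), including Cited2 (0.46), and 3 lower, led by Junb (-1.55) and Runx1 (-1.67). Of 16 non-Smad branch genes none was called under vehicle (1 lower without that library) and 4 were higher under TGFb, led by the p38 kinase kinase Map2k6 (0.77). Beside these lists, the siRNA calls over all genes were 0.66% under vehicle, and 16% higher and 7.16% lower under TGFb.

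Ligands and latency genes were measured as a source of signal made by the cells. Of 11 tested, 8 rose and 3 fell with TGFb in control cells, with Lrrc32 (log2 1.65), Ltbp2 (2.14), Ltbp3 (0.62) and Tgfb1 (0.51) among those that rose. The 3 that fell were the ligands Tgfb2 (-0.97) and Tgfb3 (-0.93) and the integrin chain Itgb8 (-0.31). Of all genes 16.4% were called higher and 29.1% lower in this comparison. Under vehicle Bmal1 siRNA raised 1 of the 11, the integrin chain Itgb8 (0.48, adjusted p = 0.0253), where 0.294% of all genes were called higher. The Itgb8 call was lost in 4 of the 12 fits without 1 library, those lacking replicate 1 or 3 of the scrambled vehicle group or replicate 2 or 3 of the Bmal1 siRNA vehicle group (adjusted p 0.0683 to 0.161). Tgfb1 stood at 48.18, 45.88 and 48.37 FPKM there, against 51.31, 49.70 and 50.09 FPKM in control cells. Under TGFb the siRNA raised 1 of the 11 and lowered 6 (7 without Bmal1 siRNA TGFb replicate 2), where 16% of all genes were called higher and 7.16% lower. Tgfb1 was among those lowered (log2 -0.43, limma adjusted p = 3.28e-05).

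Of genes known as targets of Smad1 and Smad5, the BMP-branch Smads among the members, 8 could be tested. Smad6 and Smad9 of this list are also in lists above. BMP signalling itself was not measured, so the levels of these genes are not a direct reading of it. With TGFb 7 fell and none rose under either siRNA, though 1 was called higher with scrambled siRNA without Bmal1 siRNA TGFb replicate 2. Of all genes 29.1% were called lower with scrambled siRNA and 10.1% after Bmal1 siRNA. The largest falls were those of Id2 (log2 -2.74 in control cells and -1.70 after Bmal1 siRNA) and Id3 (-1.83 and -1.47), and Atoh8 (-1.40 and -1.02) and Id1 (-1.23 and -1.40) fell as well. Smad1 and Smad5 themselves were not lower with TGFb under either siRNA. Under TGFb Bmal1 siRNA raised 1 of the 8, Id2 (1.15), where 16% of all genes were called higher. Without Bmal1 siRNA TGFb replicate 2, 1 other was lower. The median of the 8 relative to control vehicle cells was -0.97 to -1.01 in the scrambled and -1.19, -0.59 and -0.88 in the Bmal1 siRNA TGFb libraries.

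The genes whose levels were most like those of single members over the 12 libraries are given as a description, since the libraries share groups. Tgfbr3 was followed most closely by the retinoid receptor Rxra (Pearson r = 0.994), Rasl11a (0.994) and Dmpk (0.994). Eng was followed by the protease inhibitor Timp1 (0.991), Pdzrn3 (0.99) and Phlda3 (0.988). For Smad3 these were Gng7 (0.972), Icosl (0.969) and Slc35a5 (0.969), and for Smad5 Bmpr2 (0.967), Med14 (0.954) and Soga1 (0.952).

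Markers of other cell types were summed per library to describe the makeup of the samples. Leukocyte markers summed to 3.42 to 5.55 FPKM over all libraries. The 7 hepatocyte markers in the table, mostly transferrin (Trf), summed to 199 to 220 FPKM in control vehicle cells and 70.6 to 93.1 FPKM with TGFb, and to 214 to 250 and 61.8 to 116.5 FPKM after Bmal1 siRNA, while Apob, Cps1 and Hnf4a reached at most 0.02 FPKM. The list did not move in one direction: with TGFb in control cells Trf (log2 -1.96) and Ahsg (-1.74) fell and Ass1 rose (2.31, adjusted p = 4.85e-08). The 6 cholangiocyte markers, mostly Spp1, summed to 77.4 to 88.9 and 212 to 231 FPKM in control cells, and 82.0 to 93.3 and 105 to 189 FPKM after Bmal1 siRNA. In control cells with TGFb Spp1 (1.53), Krt8 (1.15) and Sox9 (0.80) rose while Krt19 (-0.63, adjusted p = 0.0202) and Krt7 (-0.71, adjusted p = 0.00293) fell. Their part in the member changes was not tested. In these bulk samples fewer cells of a kind and less RNA per cell cannot be told apart.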

How the data were processed

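Total RNA of 12 libraries of the EMS404 line was sequenced at BGI, per the labels. The deposited table holds FPKM to 2 decimals, a unit already scaled by gene length and library size by the authors, so read depth cannot be read from it, and a count test was not used. The submitters' processing notes name HISAT2 2.0.4, Bowtie2 2.2.5, RSEM, DESeq2 and the build mm10. For the use of strand in counting, the protocols and notes at hand state nothing. RNA was extracted with either of a pair of kits, per the labels' protocols, with no label saying which library had which. Of 16290 lines, 555 had no identifier (1.304% to 1.464% of FPKM) and 15 repeated one; these were left out, which left 15720. GENCODE M21 gave names to 15694 of them, and positions.

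The 11208 genes whose mean over libraries reached 0.5 FPKM entered a limma fit (version 3.58.1, R 4.3.3) of log2(FPKM + 1), with an intensity trend, 1 mean per group over all 12 libraries (8 residual and 5 prior degrees of freedom), 95% intervals and Benjamini-Hochberg adjustment over all genes tested. The fit was tested on simulated data. Member ratios were compared on the log2 scale by two-sided exact permutation tests with scipy 1.17.1. Promoter windows came from RefSeq GRCm38.p6. The members and gene lists were chosen with earlier results of these data known. All members and Arntl were to be named, with, per other list and comparison, up to 4 called genes of smallest p (or 2 where none was called) and, for the 4 members of smallest interaction p, the 3 genes most correlated over the 12 libraries; genes outside that rule were picked after their values were seen. These are Smad7, Tgfb1, Zfyve9, Dab2 and Appl1 under vehicle, and Tgfb2, Tgfb3, Itgb8 and Id1 in control cells. They also include Bmpr1a, Acvrl1, Bmpr1b and Acvr1c, Pmepa1 by library, Thbs1, Itgav and the marker genes. Alternatives covered the pseudocount, filter, scaling, trend, array weights, replicate block, groups in the fit and each library left out.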

Additional observations from a re-analysis of the deposited data

Results flagged for a closer look

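The 24 genes flagged here are Tgfbr3 and 23 pathway list genes under the rule for naming. For each, the TGFb effect after Bmal1 siRNA differed from that with scrambled siRNA (limma interaction test over all genes, adjusted p under 0.05). Also passing, and outside the 24, were Arntl (-0.77, adjusted p = 0.000526), Thbs1 and Itgav (below) and marker genes such as Ass1 (-1.44) and Hand2 (0.85). Of 114 tested pathway list genes 36 passed, where 14.4% of all genes did. The list of 18 TGFb and Smad3 targets, chosen with earlier results of these data known, held 16 that passed. Of the 36 genes, 23 fell under the rule for naming and 13 did not. The values below are interactions on the log2(FPKM + 1) scale, and their causes were not tested. Among the members this held for Tgfbr3 (0.93), whose fall was smaller after Bmal1 siRNA. Of the receptors and receptor-binding genes, Acvr1 (-0.45), Bmpr2 (-0.54), Cd109 (-0.62) and Appl1 (-0.42) had negative values. Bmpr2 lost its call in 9 of the 12 fits without 1 library (adjusted p 0.0591 to 0.108), and Appl1 without scrambled TGFb replicate 3 (0.0503). Of inhibitors and corepressors, negative values were found for Skil (-1.37), Smad7 (-1.01), Pmepa1 (-2.30) and Ski (-0.58). Of ligases and phosphatases, Wwp2 (-0.57) and Smurf1 (-0.42) had negative values and Ctdsp1 (0.34) a positive one. Of cofactors, Junb (-1.52) and Runx1 (-1.61) had negative values and Cited2 (0.70) a positive one. The non-Smad genes Map2k6 (0.57) and Tab1 (0.33) had positive values. Of 6 ligand and latency genes that passed, all negative, the 4 of smallest p were Ltbp3 (-0.68), Lrrc32 (-1.31), Ltbp2 (-1.36) and Tgfb1 (-0.34), and the others were Thbs1 (-0.75) and Itgav (-0.60); without Bmal1 siRNA TGFb replicate 2, 7 passed. The targets Itgb5 (-1.07) and Snai1 (-1.24) had negative values, and the BMP target Id2 (1.04) fell less.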

How the results depend on the processing

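Of 1071 values of 45 member results under alternatives, 1014 kept their side of the threshold, 37 lost a call, 20 gained one and no called value reversed. Among the 1014, 25 values of 6 results near 0 had the other sign (Smad2, Smad1 and Smad5 for TGFb after Bmal1 siRNA, Smad1 for the siRNA under vehicle, Smad2 for it under TGFb, Tgfbr2 for the interaction); the lowest adjusted p of these results under any alternative was 0.201. With equal totals 2 members were called for the interaction, with quantile normalization 2 and with array weights 3, against 1. Array weights, whose estimation gave a convergence warning, called 5 members for TGFb after Bmal1 siRNA against 2, and 7 for the siRNA under TGFb against 4. Leaving out 1 library gave 5 to 7 members for TGFb with scrambled siRNA, 2 to 3 after Bmal1 siRNA, 0 for the siRNA under vehicle, 3 to 6 under TGFb and 1 to 2 for the interaction. Without replicate 2 of both TGFb groups, a setting chosen after seeing the data, these counts were 6, 3, 0, 3 and 1. For the 16 ratio results, 96 values without 1 library were set against the pooled SD of the replicates. Leaving out 1 of 3 libraries cannot shift a mean by that much, so this comparison says nothing about how stable the ratios are.

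Calls over all genes for the siRNA under vehicle were 74, against 7 with no filter, 540 with the replicate block, 229 with only the groups compared, 1490 with array weights, 414 in the setting chosen after seeing the data, and 2 to 472 without 1 library. Array weights gave 5513 against 2128 for TGFb after Bmal1 siRNA, 4914 against 2596 for the siRNA under TGFb (1542 with only the groups compared) and 3723 against 1612 for the interaction. FPKM without counts does not give the depth behind a low value.

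The labels share replicate numbers but name no common culture or day, and deviations of same-numbered libraries did not correlate above 0.1 in every pair of every comparison made. The lowest and highest were -0.149 and 0.0812 between the scrambled groups, 0.00646 and 0.171 between the vehicle groups, -0.051 and 0.475 between the TGFb groups and 0.0402 and 0.37 between the Bmal1 siRNA groups. Libraries correlated best with their own number in 1, 2, 2 and 2 of 3 cases. Of the group pairs not compared directly, scrambled TGFb with Bmal1 siRNA vehicle gave 0.203 to 0.419 and 3 of 3 cases, a hint of shared numbers, and scrambled vehicle with Bmal1 siRNA TGFb gave -0.161 to 0.0703 and 0 of 3. With the replicate number as a block, the members called were 6, 2, 0, 5 and 1 and the calls over all genes 5360, 2556, 540, 2947 and 1893 for the 5 comparisons in the order above. Smad1 was lost there for TGFb with scrambled siRNA (adjusted p = 0.0547) and Tgfbr2 gained for the siRNA under TGFb (0.0155).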
